A study of Homo sapiens with 4 samples.

Results

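LTR7, LTR7B, LTR7C and LTR7Y are the long terminal repeats (LTRs) of HERV-H, a family of endogenous retroviruses that entered the primate germ line and now lies scattered through the human genome. They were chosen by name and are 4 of the 373 LTR subfamilies in the deposited table. HCT116 cells, an established human colorectal carcinoma line, had received 300 nM 5-aza-CdR or PBS for 24 h and were collected on day 5 for native ChIP-seq, in which nucleosomes are precipitated without cross-linking. H3K9me2 and H3K9me3 are histone H3 carrying 2 or 3 methyl groups on lysine 9, both typical of silent chromatin, and each was profiled in 1 library from 5-aza-CdR-treated cells and 1 from PBS-treated cells. The 4 groups are therefore H3K9me2 with 5-aza-CdR, H3K9me2 with PBS, H3K9me3 with 5-aza-CdR and H3K9me3 with PBS. No group has a replicate, so no difference below has an error between libraries or a p-value.

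An LTR stands at each end of a provirus and carries the signals that start and end its transcripts. Many HERV-H LTRs persist as solitary copies without the viral genes. LTR7 copies are known in human pluripotent stem cells as binding sites of pluripotency factors and as promoters of long noncoding RNAs, and HERV-H transcripts are known from colorectal tumours. LTR7 is the form linked to primed pluripotent cells, while LTR7Y is linked to naive-like cells and LTR7B to the preimplantation embryo. H3K9me3 is placed on many retroviral repeats by SETDB1, which KRAB zinc finger proteins recruit through TRIM28, and H3K9me2 is placed mainly by G9a and GLP. DNA methylation of CpG sites is a further layer of silencing, and 5-aza-CdR (decitabine) is a cytosine analogue that traps the DNA methyltransferases and lowers it. Methylated CpG sites are lost by mutation over evolutionary time, so CpG density tends to be higher in younger repeats.

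The authors deposited z-scores, on which a higher value stands for more of the mark relative to whatever the scores were scaled on. Neither that basis nor the number of reads behind a score is stated in the sources used here. A value describes a whole subfamily and cannot be assigned to a single copy near a gene.

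The LTR7 subfamilies are CpG-rich among the LTRs of the table. LTR7Y had the highest deposited CpG density of the 4, at 0.0186, which placed it 19th from the top of the 373. LTR7 followed at 0.0153 (place 32), LTR7B at 0.0129 (place 62) and LTR7C at 0.0110 (place 81). The unit of sequence behind this ratio is not stated. The density serves below to find subfamilies of similar CpG content.

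All 4 subfamilies had low H3K9me2 among the LTRs. LTR7Y had an H3K9me2 z-score of -0.250 in 5-aza-CdR cells, against -0.677 in PBS cells. LTR7 had -0.255 in 5-aza-CdR cells, against -0.618 in PBS cells. LTR7B had -0.114 in 5-aza-CdR cells, against -0.550 in PBS cells. Each of these values lay below the median of all subfamilies, which was 0.312 in the 5-aza-CdR library and -0.412 in the PBS library. LTR7C had -0.114 in 5-aza-CdR cells, against -0.644 in PBS cells. In the 5-aza-CdR library the members formed a lower pair, LTR7 and LTR7Y, and a higher pair, LTR7B and LTR7C. In the PBS library LTR7B was highest and LTR7Y lowest. Counted from the lowest of 373, the members held places 14 (LTR7), 15 (LTR7Y), 33 (LTR7B) and 34 (LTR7C) with 5-aza-CdR, against places 51, 34, 87 and 41 with PBS.

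H3K9me3 was likewise low. LTR7Y had an H3K9me3 z-score of 0.00246 in 5-aza-CdR cells, against -0.557 in PBS cells. LTR7 had 0.0260 in 5-aza-CdR cells, against -0.546 in PBS cells. LTR7B had 0.133 in 5-aza-CdR cells, against -0.541 in PBS cells. The order of the 4 subfamilies was the reverse of their order in CpG density in both libraries: LTR7Y lowest, then LTR7, LTR7B and LTR7C. LTR7C had 0.136 in 5-aza-CdR cells, against -0.537 in PBS cells. The medians of all subfamilies were 0.468 with 5-aza-CdR and -0.504 with PBS. From the lowest of 373, LTR7Y held place 8, LTR7 place 10, LTR7B place 22 and LTR7C place 23 with 5-aza-CdR, against places 20, 37, 51 and 56 with PBS. Without replicates it cannot be said which neighbours in these orders differ. In the 5-aza-CdR libraries LTR7B and LTR7C were 0.000204 apart for H3K9me2 and 0.00285 apart for H3K9me3.

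**Figure D1:**
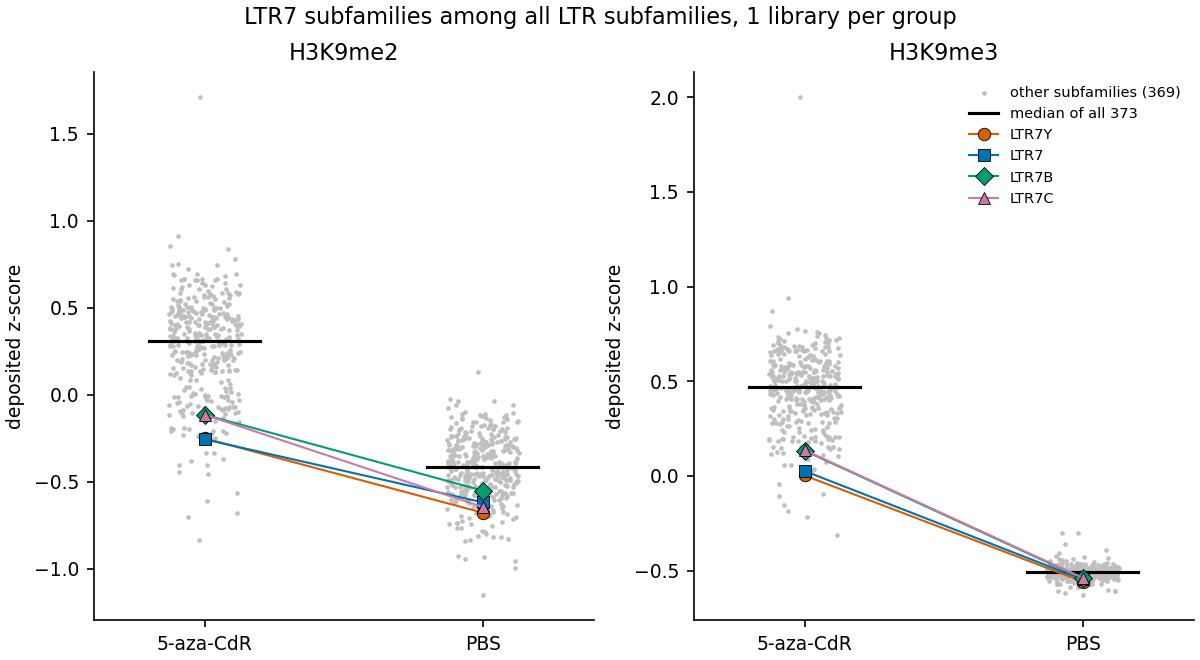
Deposited z-scores (vertical axis) of H3K9me2 and H3K9me3 in the 5-aza-CdR library and the PBS library. Grey points are the other 369 subfamilies, black bars the median of all 373, and coloured symbols joined by lines the LTR7 subfamilies, which lie below the median in all 4 libraries.

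To read these levels against the whole table, the limit was set 2 robust SDs under the median of all 373 subfamilies, a robust SD being the median absolute deviation scaled to match an SD. For H3K9me2, 2 of the 4 LTR7 subfamilies (LTR7 and LTR7Y) were below the limit in the 5-aza-CdR library, where 7.24% of all subfamilies were, and 0 of 4 in the PBS library, where 4.02% were. For H3K9me3, the same 2 were below it in the 5-aza-CdR library, with 5.36% of all subfamilies, and LTR7Y alone in the PBS library, with 5.63%.

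The marks gave the LTR7 subfamilies similar places. In the 5-aza-CdR libraries, the share of the other subfamilies with a lower value was 1.88% for H3K9me3 and 3.76% for H3K9me2 at LTR7Y. At LTR7 it was 2.42% for H3K9me3 and 3.49% for H3K9me2. At LTR7B it was 5.65% and 8.60%, and at LTR7C 5.91% and 8.87%, for H3K9me3 and H3K9me2. H3K9me3 thus held the lower place at all 4 with 5-aza-CdR. In the PBS libraries it did so at LTR7Y, LTR7 and LTR7B. The widest gap there was at LTR7B, with 13.4% for H3K9me3 and 23.1% for H3K9me2. LTR7C was the other way round in PBS, at 14.8% for H3K9me3 and 10.8% for H3K9me2.

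CpG-rich subfamilies tend to have low z-scores for both marks, so each LTR7 subfamily was next set beside the 20 subfamilies nearest to it in CpG density, with the LTR7 subfamilies themselves left out. These neighbours spanned densities of 0.0155 to 0.0218 for LTR7Y, 0.0141 to 0.0164 for LTR7, 0.0122 to 0.0138 for LTR7B and 0.0103 to 0.0116 for LTR7C. LTR7Y and LTR7 shared 6 neighbours, so the 4 sets hold 74 different subfamilies.

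**Figure D2:**
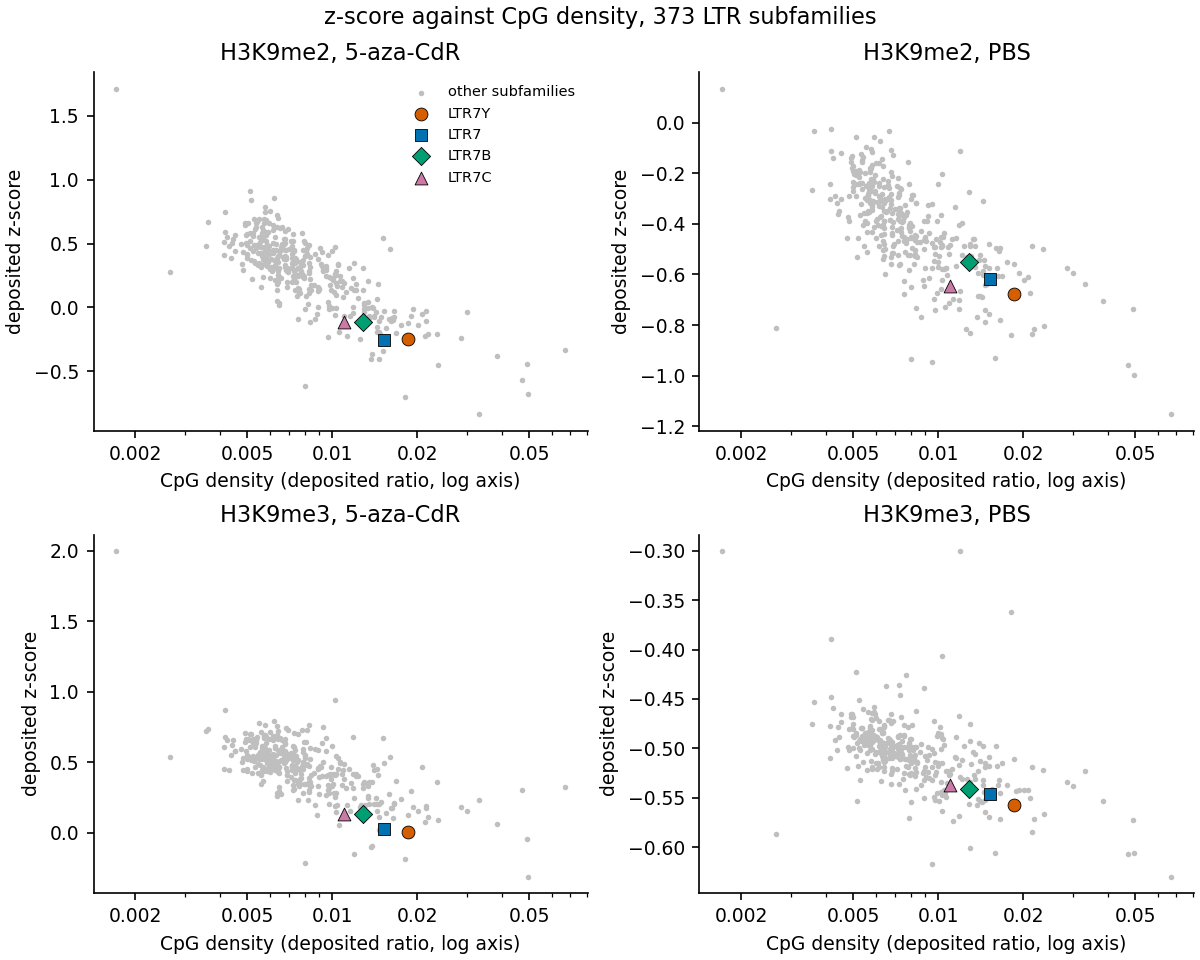
Deposited z-score (vertical axis) against CpG density (horizontal axis, log scale) for 373 LTR subfamilies in each library, with 5-aza-CdR on the left and PBS on the right. The coloured LTR7 subfamilies lie in the CpG-rich part of the range, between densities of 0.0110 and 0.0186, and along the lower side of the cloud in the 5-aza-CdR panels.

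Among subfamilies of similar CpG density, the LTR7 repeats were toward the lower end for H3K9me3 in 5-aza-CdR cells. LTR7Y, at 0.00246, was lower than 19 of its 20 neighbours, whose median was 0.181. LTR7, at 0.0260, was lower than 19 of 20, with a neighbour median of 0.206. LTR7B, at 0.133, was lower than 18 of 20, with a neighbour median of 0.287. These 3 lay between 0.154 and 0.180 under their neighbours. LTR7C, at 0.136, was lower than 19 of 20 and lay 0.282 under a neighbour median of 0.418. The distance from the neighbour median was computed for every subfamily in the same way, and the robust SD of those distances (0.124 in this library) gives the unit for the calls relative to neighbours, here and below. LTR7C was the only member beyond 2 such robust SDs in this library (-2.28), against 2.68% of all subfamilies below. With 40 neighbours, a smoothed line through all subfamilies or percentile ranks, LTR7C was within 2 robust SDs (-1.88, -1.66 and -1.56).

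On the deposited scores, the LTR7 repeats stood closer to their CpG neighbours in PBS cells for H3K9me3. LTR7Y was lower than 16 of 20 neighbours, LTR7B than 15, LTR7 than 14 and LTR7C than 13. The distance under the neighbour median ran from 0.0102 at LTR7B to 0.0156 at LTR7Y. The distances of all subfamilies from their CpG neighbours are compressed in PBS, with a robust SD of 0.124 in the 5-aza-CdR library and 0.0192 in the PBS library, so the 2 libraries are set side by side in robust SDs of these distances. In those units the members lay at -1.24 to -2.28 with 5-aza-CdR and at -0.513 to -0.798 with PBS, and 0 of 4 were beyond 2 in PBS, where 4.56% of all subfamilies were below. As percentile ranks, LTR7Y was not closer in PBS, at -0.337 robust SDs with 5-aza-CdR and -0.364 with PBS. LTR7 (-0.519 and -0.324), LTR7B (-0.654 and -0.304) and LTR7C (-1.56 and -0.445) were closer there. The change in distance between the libraries was not tested.

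H3K9me2 followed a similar course. With 5-aza-CdR, LTR7Y was lower than 19 of 20 CpG neighbours, LTR7 and LTR7C than 18 and LTR7B than 17. LTR7Y lay 0.148 under its neighbour median of -0.102, and LTR7 0.160 under one of -0.0950. LTR7B lay 0.112 under a neighbour median of -0.00248. LTR7C had again the greatest distance, 0.279 under a neighbour median of 0.166. In robust SDs these distances were -0.721 to -1.83, and 0 of 4 passed 2 robust SDs, against 5.09% of all subfamilies. With PBS, LTR7C was lower than 17 of 20 neighbours, LTR7Y than 14, LTR7 than 12 and LTR7B than 11. The PBS distances were 0.100 at LTR7C, 0.0684 at LTR7Y, 0.0219 at LTR7 and 0.0211 at LTR7B, with 0 of 4 beyond 2 robust SDs, against 5.90% of all subfamilies below. The PBS values of LTR7 and LTR7B were close enough to the neighbours for the side to depend on the choice of neighbours: LTR7 lay above them with 10 neighbours, and LTR7B with 40 or with the smoothed line.

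A count chosen after these values were seen gives the background for them. The cut of 17 of 20 is the lowest count of any member in the 5-aza-CdR libraries. The 4 of 4 in those libraries therefore follows from the choice and is not support. For H3K9me3 with 5-aza-CdR, 4 of 4 LTR7 subfamilies had at least 17 of 20 CpG neighbours above them, as had 20.1% of all subfamilies. With PBS it was 0 of 4, against 20.6% of all. For H3K9me2 it was 4 of 4 with 5-aza-CdR, against 19.6% of all, and 1 of 4 with PBS, against 20.1%. All 4 members lay under their neighbour median in all 4 libraries, as did 22.3% of all subfamilies. For the treatment difference described below, the count was 4 of 4 for H3K9me3, against 20.9% of all, and 2 of 4 (LTR7 and LTR7C) for H3K9me2, against 19.8%. The H3K9me3 difference largely repeats the level with 5-aza-CdR, from which the cut was taken, so its 4 of 4 is not support either. With the differences of both marks added, all 4 members still lay under the neighbour median throughout, as did 16.4% of all subfamilies. The members descend from a common LTR, so they do not count as independent cases.

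**Figure D3:**
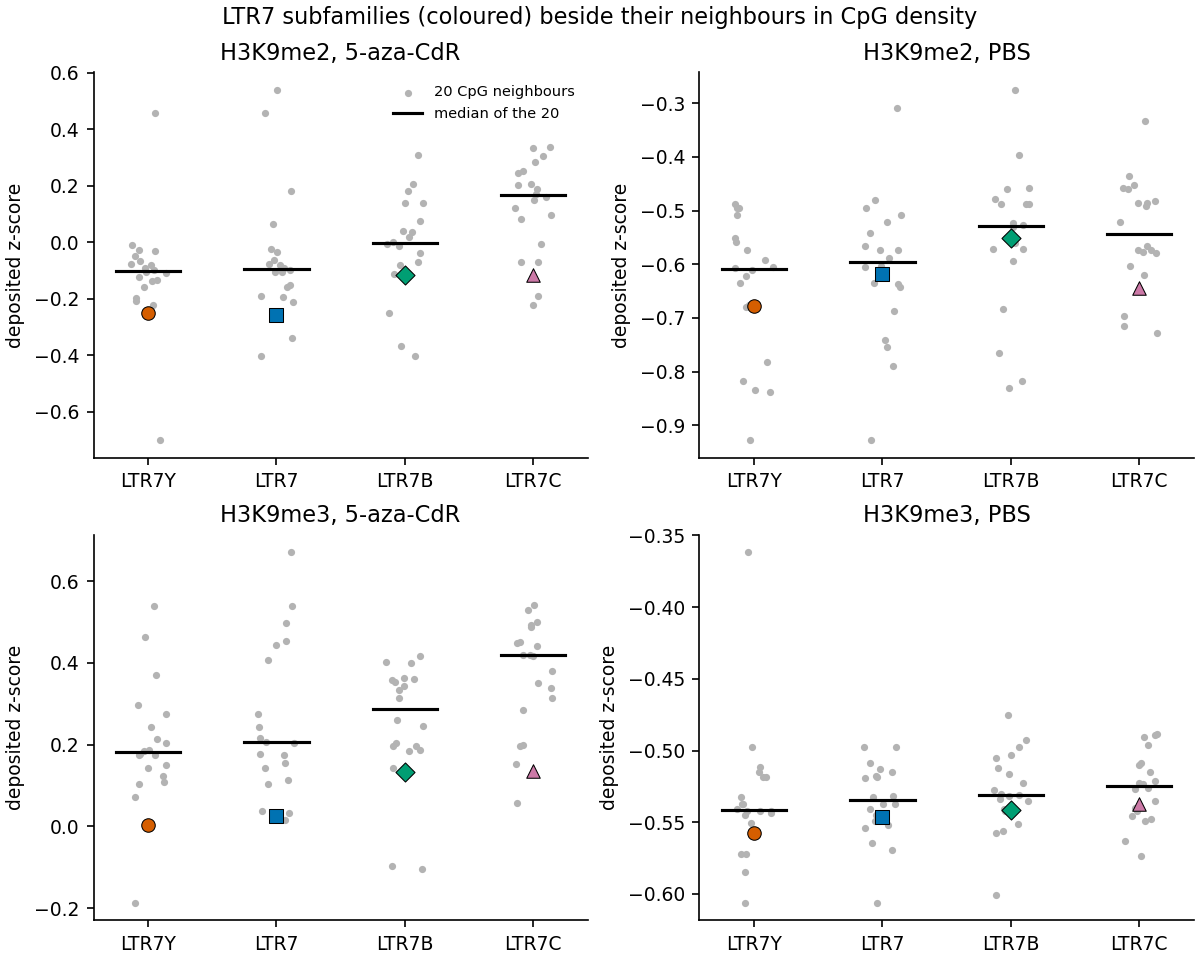
Each LTR7 subfamily (coloured symbol) beside its 20 nearest subfamilies in CpG density (grey points, black bar their median), with deposited z-scores on the vertical axis, 5-aza-CdR on the left and PBS on the right. In the 5-aza-CdR panels each member lies under all but 1 to 3 of its neighbours, and in the PBS panels under 11 to 17 of the 20.

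The immediate neighbours in CpG density show the size of these gaps. LTR12F, an LTR of ERV9 and the next subfamily above LTR7Y, had H3K9me3 z-scores of 0.298 with 5-aza-CdR and -0.543 with PBS. LTR2B, the next below it, had 0.123 and -0.511. LTR7 was flanked by LTR14, an LTR of a HERV-K group, at 0.142 and -0.541, and by MER9a1 at 0.496 and -0.518. All of these exceeded LTR7Y and LTR7 in both libraries. LTR7B lay between LTR1B (0.188 with 5-aza-CdR and -0.534 with PBS) and MER9B (0.344 and -0.556), so MER9B was under LTR7B in PBS cells only. LTR7C lay between MER41G (0.379 and -0.526) and LTR10A (0.487 and -0.540), and LTR10A was likewise lower in PBS cells and higher in 5-aza-CdR cells. For H3K9me2 with 5-aza-CdR the same flanking subfamilies were also higher than the member they flank. LTR12F had -0.0666 and LTR2B -0.122 there, LTR14 had -0.157 and MER9a1 -0.0251, LTR1B had -0.0384 and MER9B 0.310, and MER41G had 0.187 and LTR10A -0.0687. With PBS the H3K9me2 values lay on both sides of the members. LTR12F (-0.680) was under LTR7Y, LTR14 (-0.635) under LTR7 and LTR10A (-0.714) under LTR7C, while LTR2B (-0.559), MER9a1 (-0.573), LTR1B (-0.479), MER9B (-0.275) and MER41G (-0.482) were above the member they flank.

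The question of the treatment comparison is how each mark differed on LTR7 repeats after a DNA methylation inhibitor. The z-score was higher with 5-aza-CdR at 4 of 4 members for both marks, as it was at 99.7% of all subfamilies for H3K9me2 and 100.0% for H3K9me3. On this scale the whole table moved, so the members' values are read against the median difference. That median was 0.702 for H3K9me2 and 0.973 for H3K9me3, and the limit of 2 robust SDs lay at 0.452 and 0.687.

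The H3K9me2 difference, 5-aza-CdR minus PBS, was 0.427 at LTR7Y, 0.362 at LTR7, 0.436 at LTR7B and 0.530 at LTR7C. LTR7, LTR7Y and LTR7B were below the limit, 3 of 4, against 8.04% of all subfamilies. The H3K9me3 difference was 0.560 at LTR7Y, 0.572 at LTR7, 0.674 at LTR7B and 0.674 at LTR7C. All 4 were below the limit for this mark, against 7.24% of all subfamilies. LTR7B and LTR7C were near it, at -2.09 and -2.10 robust SDs, while LTR7Y and LTR7 were at -2.89 and -2.81. Over all subfamilies the H3K9me3 z-scores had a robust SD of 0.171 with 5-aza-CdR and 0.0254 with PBS. The H3K9me3 difference therefore largely repeats the 5-aza-CdR level and is not a separate result. With each library set to mean 0 and SD 1, or as percentile ranks, 0 of 4 members were below the limit for either mark. Of all subfamilies, 2.95% (H3K9me2) and 4.56% (H3K9me3) were below it with SD 1, and 3.49% and 6.43% as ranks. The members were nearer the median on both scales. With SD 1 they lay at -0.173 (LTR7C) to -1.66 (LTR7) robust SDs for H3K9me2 and at -0.870 (LTR7B) to -1.43 (LTR7) for H3K9me3. As ranks they lay at -0.0450 (LTR7C) to -1.10 (LTR7B) for H3K9me2 and at -0.124 (LTR7Y) to -0.413 (LTR7C) for H3K9me3, close to the median of all subfamilies. With a limit of 2 ordinary SDs, 0 of 4 were below it for H3K9me2, against 2.68% of all subfamilies. For H3K9me3 it was 2 of 4 (LTR7 and LTR7Y), against 2.95%. These calls lay at the limit: LTR7 was at -1.998 ordinary SDs for H3K9me2, and LTR7 and LTR7Y were at -2.018 and -2.084 for H3K9me3. The counts therefore do not set the marks apart.

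**Figure D4:**
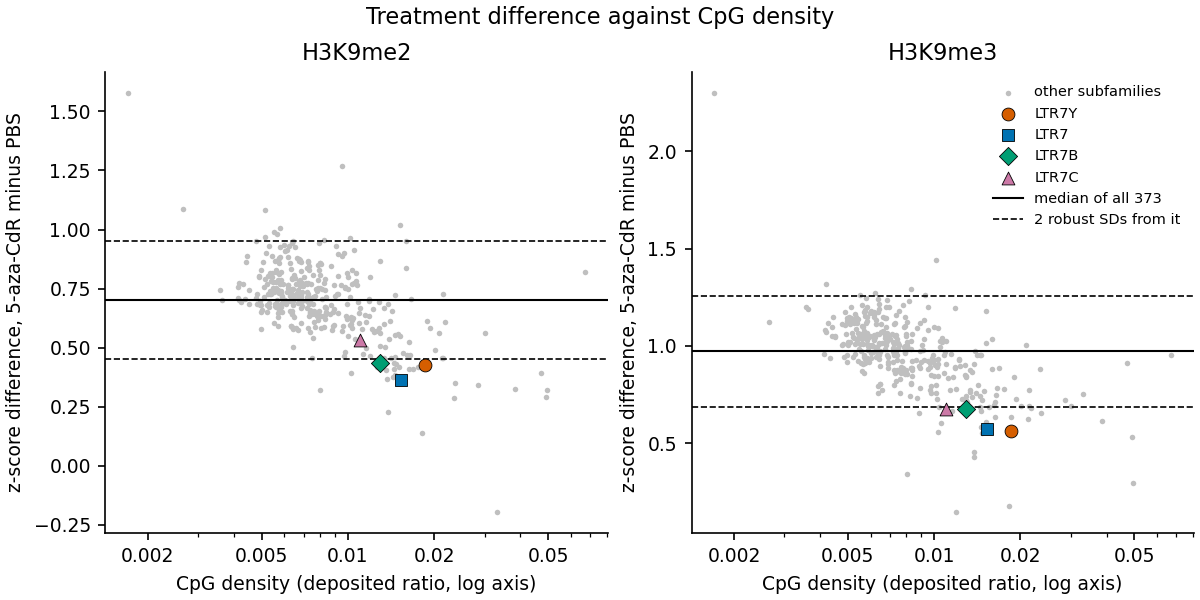
Difference in deposited z-score, 5-aza-CdR minus PBS (vertical axis), against CpG density (horizontal axis, log scale) for 373 LTR subfamilies. The solid line is the median difference and the dashed lines lie 2 robust SDs from it. The LTR7 subfamilies lie at 0.362 to 0.530 for H3K9me2 and at 0.560 to 0.674 for H3K9me3, 7 of these 8 values under the lower dashed line.

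Beside subfamilies of similar CpG density, the gap was smaller for both marks than under the median of all subfamilies. The neighbours of LTR7Y had a median H3K9me2 difference of 0.483, those of LTR7 0.474, those of LTR7B 0.562 and those of LTR7C 0.642. The members lay 0.0560 (LTR7Y), 0.111 (LTR7 and LTR7C) and 0.126 (LTR7B) under these medians. LTR7 had a smaller difference than all 20 of its neighbours, the lowest of which was at 0.373. LTR7C was under 18 of 20, LTR7Y under 16 and LTR7B under 15. In robust SDs the members were at -0.461 to -1.09, with 0 of 4 beyond 2, against 2.14% of all subfamilies below.

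For H3K9me3 the neighbours' median difference was 0.719 for LTR7Y, 0.732 for LTR7, 0.805 for LTR7B and 0.921 for LTR7C. LTR7Y and LTR7 were each 0.159 under it and lower than 19 of 20 neighbours. LTR7B was 0.131 under it and LTR7C 0.247, each lower than 18 of 20. LTR7C was beyond 2 robust SDs (-2.08), 1 of 4 members, against 3.22% of all subfamilies, and the other 3 were within it (-1.09 to -1.34). LTR7C was within 2 robust SDs with 40 neighbours (-1.90), with the smoothed line (-1.82) and on either rescaling (-1.23 with SD 1, -0.738 as ranks). LTR7C, the member with the largest H3K9me2 difference and the lowest CpG density, was thus the farthest from its CpG neighbours for H3K9me3. These distances largely repeat those of the H3K9me3 level with 5-aza-CdR, which ran from -1.24 (LTR7B) to -2.28 (LTR7C) robust SDs.

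The neighbours for the difference can also be taken as the 20 subfamilies with the nearest PBS z-score of the same mark. By that measure LTR7 was beyond 2 robust SDs for H3K9me3 (-2.15) and LTR7C was not (-0.996). The count was 1 of 4 again, with 4.02% of all subfamilies below, and the member called was another. For H3K9me2 0 of 4 were beyond 2 robust SDs by that measure, with 5.63% of all subfamilies below. LTR7 (-1.61), LTR7Y (-1.60) and LTR7B (-1.38) lay farther under these neighbours than under their CpG neighbours (-0.960, -0.461 and -1.09), and LTR7C lay nearer to them (-0.458, against -0.960).

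Subfamilies outside HERV-H most like each member were found by their distance over the 4 z-scores, each divided by its SD over all subfamilies. Among these, LTR1 was nearest to both LTR7Y (distance 0.404) and LTR7 (0.416). Its H3K9me2 z-scores were -0.221 with 5-aza-CdR and -0.675 with PBS, and its H3K9me3 z-scores 0.0724 and -0.550. LTR22B came next among them for both, at distances of 0.543 from LTR7Y and 0.648 from LTR7, followed by LTR12C for LTR7Y (0.564) and LTR14 for LTR7 (0.683). For LTR7B the nearest were LTR30 (0.369), MER48 (0.380) and LTR5_Hs (0.386), the LTR of the youngest HERV-K proviruses. For LTR7C they were LTR14 (0.188), LTR2 (0.204) and LTR5_Hs (0.301). With the LTR7 subfamilies counted too, LTR7Y and LTR7 were each the second nearest of 372 to the other, at a distance of 0.460. LTR7B and LTR7C were less close: LTR7C was the 10th nearest to LTR7B and LTR7B the 9th nearest to LTR7C, at 0.514. The LTR7 subfamilies are therefore not each other's nearest in these 4 values, which rest on 4 libraries of 1 cell line.

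4 other groups of CpG-rich or colorectal-active LTRs were set beside LTR7, with no test of the differences between groups. Some LTR10 subfamilies act as enhancers in colorectal cancer cells. In the 5-aza-CdR library, the median H3K9me3 distance from CpG neighbours was -0.179 over the 4 LTR7 subfamilies. It was 0.00689 over the 7 LTR12 subfamilies, -0.0192 over the 4 LTR5 subfamilies and 0.119 over the 8 LTR10 subfamilies. The same medians for H3K9me2 were -0.154 for LTR7, -0.107 for LTR12, 0.0479 for LTR5 and -0.127 for LTR10. More than 2 robust SDs under the neighbours for H3K9me3 were 1 of 4 LTR7 (LTR7C), 0 of 7 LTR12, 1 of 4 LTR5 (LTR5) and 0 of 8 LTR10 subfamilies, against 2.68% of all subfamilies. LTR5 itself has a round H3K9me3 z-score of -0.3 with PBS and is among the subfamilies left out in a later check. More than 2 robust SDs above the neighbours for H3K9me3 were 0 of 4 LTR7, 1 of 7 LTR12, 0 of 4 LTR5 and 3 of 8 LTR10 subfamilies, against 5.36% of all. For H3K9me2, 0 of 4 LTR7, 1 of 7 LTR12, 0 of 4 LTR5 and 0 of 8 LTR10 subfamilies were under the neighbours by that much, against 5.09% of all, and 0 in these groups were above. The LTR10 values ran the widest, from an H3K9me3 z-score of 0.114 at LTR10D to 0.939 at LTR10B1 with 5-aza-CdR, while the LTR7 values spanned 0.134. The 4 HERV-Fc LTRs, the most CpG-rich of these groups, had a median of -0.412 on the same measure for H3K9me2 and of 0.0969 for H3K9me3, from z-scores of -0.835 (HERV-Fc2_LTR) to -0.333 (HERV-Fc1_LTR2) and of -0.311 (HERV-Fc1_LTR1) to 0.321 (HERV-Fc1_LTR2). Of the 4, 3 were below 2 robust SDs for H3K9me2 and 1 for H3K9me3. These LTRs lie at the upper end of the CpG range, at densities of 0.0331 to 0.0671. Most of their nearest subfamilies are therefore less CpG-rich, and the distance is not a comparison at like density as for LTR7. The same limit applies to LTR12E and LTR12C.

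Within the range of CpG densities that the LTR7 subfamilies span, the table holds 59 other subfamilies. For H3K9me3 with 5-aza-CdR, 4 of the 59 were lower than every LTR7 subfamily and 10 were lower than the highest of them, and with PBS these counts were 8 and 19. For H3K9me2 they were 5 and 15 with 5-aza-CdR, and 15 and 34 with PBS. A majority of LTRs with the CpG content of LTR7 therefore had a higher H3K9me3 z-score than every LTR7 subfamily in both libraries. For H3K9me2 this held in the 5-aza-CdR library but not in the PBS library, where 34 of the 59 were lower than LTR7B. The depth of the libraries and the handling of reads that match several repeat copies are not given, and their part in these levels was not tested.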

How the data were processed

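The deposited table lists 373 LTR subfamilies with a CpG density (a ratio, per the file headers) and, per the file headers, the authors' z-score (score) for each of 4 libraries. The submitters' processing notes name Bowtie2 and hg19. Use of an input, treatment of multiply mapping reads and the basis of the z-score are not stated in the sources used here. Samples were assigned by the mark and treatment in their labels, 1 library per group.

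From these values, differences (5-aza-CdR minus PBS), ranks, distances in robust SDs from the median of all subfamilies, and distances from the median of the 20 subfamilies nearest in CpG density were computed over the whole table with Python 3.11.15, pandas 2.3.3, SciPy 1.17.1 and statsmodels 0.14.6 (the lowess line, with a share of 0.5 of the points). The procedure was tested on simulated data with planted shifts larger than the members' distances from their neighbours. That test therefore does not bear on calls of the size reported here. The design allowed no significance test. Named subfamilies are the 4 members, the next subfamily in CpG density on either side, the 3 nearest over the z-scores, and 4 comparison lists chosen by name, with their extremes. The members, lists and settings were chosen with earlier results of these data known. Alternatives changed the scale, the number of neighbours, the smoothing, the limit and the subfamilies included.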

Additional observations from a re-analysis of the deposited data

How the results depend on the processing

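No paired analysis was possible because each group holds 1 library, and no replicate could be left out. The settings that cannot change a sign (the wider limit, and SD 1 for levels) were left aside. Of the remaining 168 single values of the members, 164 were negative relative to the median or the neighbours. These values re-express the same 4 related subfamilies and 4 libraries, so they are not independent. The share of such signs over all subfamilies was not computed across these settings. The count therefore has no background and does not measure how robust the result is. On the deposited scores, 22.3% of all subfamilies lay under their CpG neighbour median in all 4 libraries. With both differences added, 16.4% of all subfamilies did so throughout. The 4 exceptions were the H3K9me2 level in PBS at LTR7 with 10 neighbours (0.256 robust SDs) and at LTR7B with 40 (0.00214) or lowess (0.0497), and the H3K9me3 difference at LTR7Y as ranks (0.0141), each within the limit.

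The number of members below the limit moved more. For the H3K9me2 difference it was 3 of 4 as deposited and 0 of 4 with SD 1 in each library, as percentile ranks, with 3 robust SDs or with 2 ordinary SDs. For the H3K9me3 difference it was 4 of 4 as deposited, 0 with SD 1, ranks or 3 robust SDs, and 2 with 2 ordinary SDs. Relative to CpG neighbours, LTR7C alone was below for the H3K9me3 level with 5-aza-CdR, and the count was 0 with 40 neighbours, lowess, ranks or 3 robust SDs. For the H3K9me3 difference relative to CpG neighbours it was 0 with 40 neighbours, lowess, SD 1, ranks or 3 robust SDs. The cause of these moves was not tested, except that a wider limit calls fewer by construction. Leaving out LTR5 and LTR11, whose H3K9me3 values include round numbers, moved no count of members. Over all subfamilies, the number below the limit for the difference, 30 for H3K9me2 and 27 for H3K9me3 as deposited, was 11 and 17 with SD 1, 13 and 24 as ranks, 8 and 7 with 3 robust SDs and 10 and 11 with 2 ordinary SDs. The depth behind the values is unknown, and its effect on them was not tested.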
